A study of Homo sapiens with 7 samples.

Results

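The tetraspanin family was examined in 7 established cell lines derived from Hodgkin lymphoma (HL), each profiled untreated on 1 Affymetrix HG U133 Plus 2.0 array. The family was taken as 32 genes chosen by name, among 19775 genes that had at least 1 probe set annotated with that gene alone. Probe sets, in which several short probes read the same piece of a transcript, numbered 60 for these genes among the 54675 of the array. The lines were L-428, KM-H2, L-540, L-1236, HDLM-2, U-HO1 and SUP-HD1, and a comparison between them is a comparison of single cultures. HDLM-2 and L-540 are held to be of T-cell origin and the others of B-cell origin. The methods name a pair of laboratories as the source of the arrays without assigning the lines, so laboratory and line cannot be told apart.

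Tetraspanins are small membrane proteins that cross the membrane several times and carry a large extracellular loop with a conserved cysteine motif. They bind integrins, proteases and receptors sideways in the membrane and gather them into tetraspanin-enriched microdomains, and several are standard markers of extracellular vesicles. In white blood cells CD37, CD53, CD81 and CD82 are the best known, and these 4 were set against the other 28 members, many of which are described in epithelium, nerve, bladder or retina.

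Expression is given as a log2 level, on which 1 unit is a doubling, and each gene was read from the probe set that had the highest average across lines. Because probe sets differ in sensitivity, levels were compared between lines for the same gene and never between genes. The background of an array was the 95th percentile over 107 probe sets of olfactory receptor genes, and was 5.59 in L-1236 and 4.49 to 4.86 in the other lines. L-1236 had 8609 genes above background, against 10554 to 11636 in the other lines. U-HO1 stood apart in the 18S ribosomal RNA control, with a level of 11.12 against at most 7.06, and in the difference between 3′ and 5′ probe sets of ACTB, 2.11 against at most 0.54. Relations between genes and the ranges that moved most are therefore also given without L-1236 and U-HO1. Since each line had 1 array, no replicate error and no test could be given, and precision is limited by how few arrays there were. The SD among probe sets that read one gene, 0.63 over 7283 genes, was used as a yardstick of technical spread, although it can also hold differences between transcripts. It is the spread of a single level, and a difference between lines spreads more. By array this SD was 0.76 in L-1236, 0.87 in U-HO1 and 0.50 to 0.58 in the others. In total RNA from a culture, fewer cells with a transcript and less transcript per cell cannot be told apart.

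The labelled identity was checked with marker genes. Of 6 Hodgkin/Reed-Sternberg cell genes, 4 were above background in L-1236 and 5 or 6 in the other lines. Of the B-cell markers, MS4A1 and CD79B lay below background in all 7 lines, while CD22 was above it in 5 and CD79A in 3. Of the myeloid markers, LYZ and MPO were below it in all lines, CSF1R was above it in 4 and CD14 in 1. Of 5 epithelial markers, EPCAM and KRT19 were below it in all lines, with KRT8 above it in 7, KRT18 in 3 and CDH1 in 2. Of the fibroblast markers, COL3A1 was below it in all lines, COL1A1 above it in 7, and COL1A2 and DCN in 1 each. T-cell markers ranged from 0 of 5 above background in L-1236 to 5 of 5 in L-540, with 3 of 5 in HDLM-2.

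Nearly the whole family was detectable in at least 1 HL cell line. Of the 32 members, 29 were above background in at least 1 line, 90.6% against 73.3% of all genes. Above background in all 7 lines were 14 members, 43.8% against 34.6% of all genes. All 4 leukocyte members were in this set, whereas 10 of the other 28 were, or 35.7%, which lies near the share of all genes. These 10 were CD63, CD151, TSPAN3, TSPAN4, TSPAN5, TSPAN9, TSPAN10, TSPAN17, TSPAN31 and TSPAN33. TSPAN6, UPK1B and PRPH2 were below background in all lines, at levels of at most 3.82, 4.84 and 4.36. TSPAN8 was the only member above background in exactly 1 line, a class that held 8.38% of all genes. The plot of the 32 genes by line shows the 4 leukocyte genes above background in all lines and the mixed pattern below them. In L-1236, CD53 at 5.87 and CD82 at 5.78 lay only just above the background of 5.59.

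**Figure D1:**
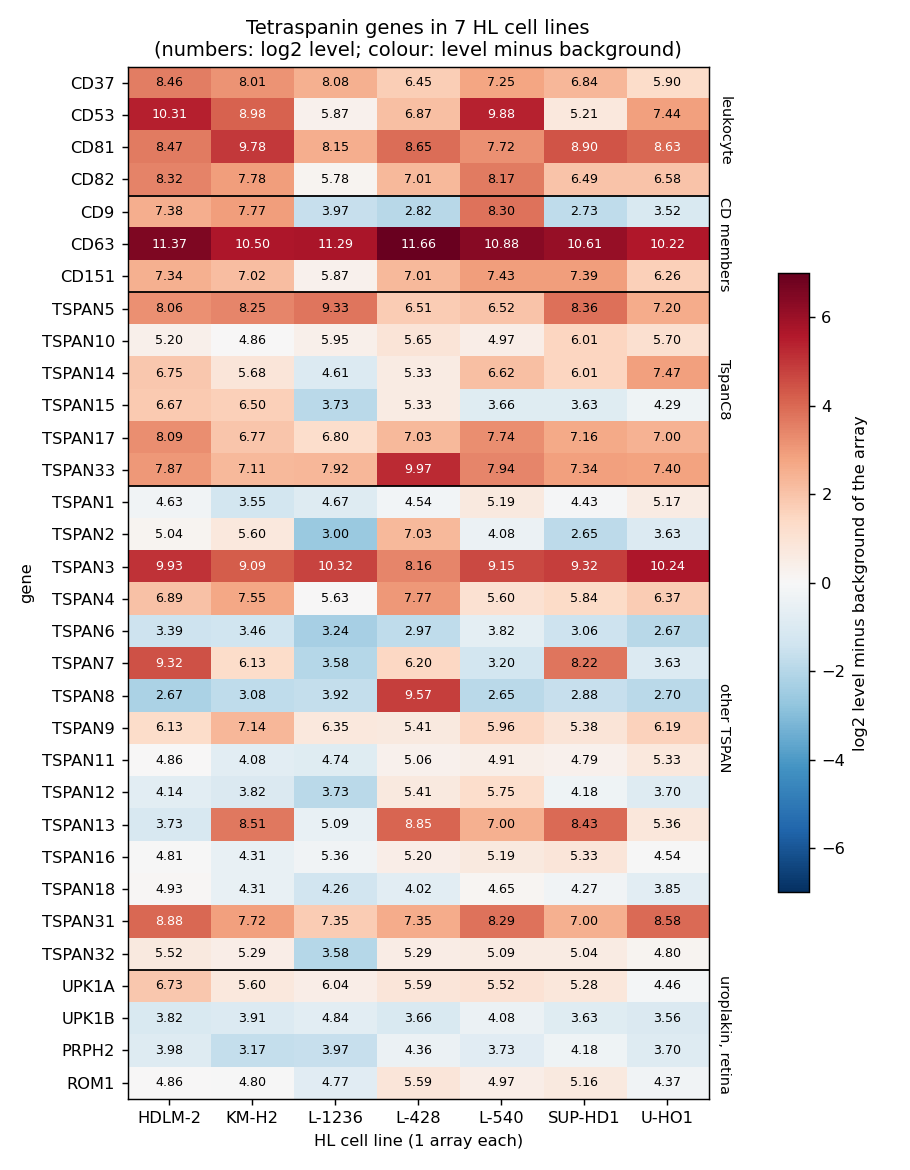
Log2 level of each of the 32 tetraspanin genes (rows, by group) in each of the 7 HL cell lines (columns, 1 array each). Numbers are log2 levels and colour is the level minus the background of that array, so that blue lies below background. TSPAN8 at 9.57 in L-428 is the only warm cell of its row.

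Many tetraspanins differed widely between the lines. The range, the highest minus the lowest line, was 2 or more for 17 of the 29 detected members, 58.6% against 50.2% of the detected genes. The median range of the members was 2.16 and that of all detected genes 2.00, so the family as a whole lay close to the array. Among genes above background in all 7 lines, 8 of 14 members had such a range, against 35.7% of genes, and their median range was 2.11 against 1.71. Among genes above background in 1 to 6 lines, it was 9 of 15 members against 63.2% of genes. Without L-1236 and U-HO1, 11 members kept a range of 2 or more, against 30.8% of genes. These 11 were CD9, CD37, CD53, CD81, TSPAN2, TSPAN4, TSPAN7, TSPAN8, TSPAN13, TSPAN15 and TSPAN33. All 4 leukocyte members had a range of 2 or more, from 2.06 to 5.10, compared with 13 of the 25 detected others. These 4 are too few to be set apart from the rest by such counts.

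**Figure D2:**
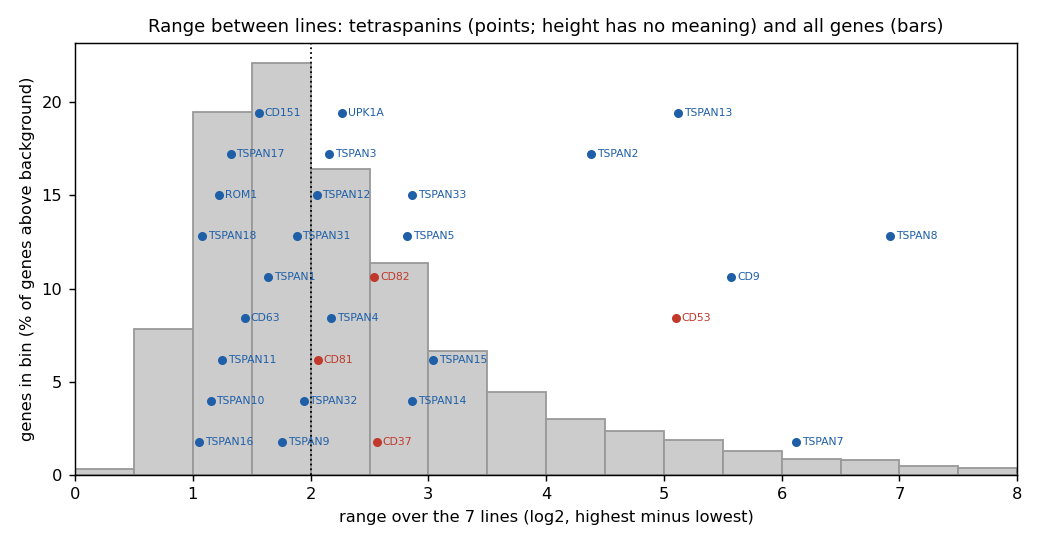
Range over the 7 HL cell lines in log2 units (horizontal axis). Bars give the percentage of the 14495 detected genes in each bin and points the 29 detected tetraspanins (red, leukocyte members; blue, others; the height of a point has no meaning). The dotted line marks a range of 2, and TSPAN8, TSPAN7, CD9, TSPAN13 and CD53 lie beyond 5.

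CD53, a pan-leukocyte tetraspanin, showed the largest range of the 4 leukocyte genes. Its level was 10.31 in HDLM-2, 8.98 in KM-H2, 5.87 in L-1236, 6.87 in L-428, 9.88 in L-540, 5.21 in SUP-HD1 and 7.44 in U-HO1. HDLM-2, L-540 and KM-H2 formed the high end and SUP-HD1 and L-1236 the low end, 5.10 apart at the extremes. HDLM-2 and L-540 were 0.43 apart, less than the SD of 0.63 between probe sets. SUP-HD1 and L-1236 were 0.66 apart, close to that SD and below the 0.76 of the L-1236 array. A second CD53 probe set, which was above background in 2 lines, ranked HDLM-2 highest and SUP-HD1 lowest as well.

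CD82, also called KAI1 and known as a metastasis suppressor, read 8.32 in HDLM-2, 7.78 in KM-H2, 5.78 in L-1236, 7.01 in L-428, 8.17 in L-540, 6.49 in SUP-HD1 and 6.58 in U-HO1. The same lines led as for CD53, and the range was 2.54, or 1.83 without L-1236. A second probe set of CD82 ran from 4.72 in SUP-HD1 to 6.90 in HDLM-2. Over the 7 lines CD53 and CD82 had r = 0.93 and rho = 0.93, and r = 1.0 without L-1236 and U-HO1. The lines share the array design and the normalisation, and 7 points describe these cultures alone.

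CD9 ran with these genes. It encodes a tetraspanin of many cell types that takes part in membrane fusion and is a common vesicle marker. Its level was 7.38 in HDLM-2, 7.77 in KM-H2, 3.97 in L-1236, 2.82 in L-428, 8.30 in L-540, 2.73 in SUP-HD1 and 3.52 in U-HO1. It was above background in HDLM-2, KM-H2 and L-540 and below it in the other 4 lines. The range of 5.57 therefore includes levels without signal, and with those raised to background it was 3.81. The other 2 CD9 probe sets lay near or below background, and the pattern rests on 1 probe set. CD9 and CD53 had r = 0.90 (rho 0.79), and CD9 and CD82 r = 0.84 (rho 0.64), with r = 0.93 for both without L-1236 and U-HO1. Among the 3 high lines the order differed, as L-540 led for CD9 and HDLM-2 for CD53 and CD82. Of the 5 T-cell markers, CD2 and CD247 were also raised in HDLM-2 (8.95 and 9.81) and L-540 (7.28 and 9.90). In KM-H2 they were not (2.67 and 3.82). CD3D and CD3E were below background in HDLM-2 (4.36 and 4.06) and barely above it in L-540 (4.65 and 4.71). In KM-H2 CD3D was at 8.89 and CD3E at 3.99. CD5 read 4.93 in HDLM-2, 5.72 in L-540 and 4.15 in KM-H2. The part of these markers in the levels of CD53, CD82 and CD9 was not tested.

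The sequence upstream of CD53, CD82 and CD9 is shown because these genes had their high levels in the same lines. It was taken from RefSeq (GRCh38.p14), whose promoter table held 24 of the 32 members with 44 start sites, and ends just before a listed start of the gene. The 250 bases before each start were searched on both strands. The letters of the GC box were GGGCGG, those of the PU.1 box, which is named for an ETS factor of blood cells, were GAGGAA, those of the TATA box, found near the start of some genes, were TATAAA, and the NF-kB consensus was searched by its usual pattern. Sequences run 5′ to 3′ on the strand of the gene, matches on either strand are in capitals, and for each gene the start with the most matches, or the first of these, is shown.
CD53, chr1:110872898-110873147, plus strand: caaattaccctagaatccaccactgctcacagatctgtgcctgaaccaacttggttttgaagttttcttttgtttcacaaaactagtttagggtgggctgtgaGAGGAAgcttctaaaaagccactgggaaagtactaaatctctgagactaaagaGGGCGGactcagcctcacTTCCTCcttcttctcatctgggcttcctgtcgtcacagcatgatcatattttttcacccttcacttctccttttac
CD82, chr11:44565413-44565662, plus strand: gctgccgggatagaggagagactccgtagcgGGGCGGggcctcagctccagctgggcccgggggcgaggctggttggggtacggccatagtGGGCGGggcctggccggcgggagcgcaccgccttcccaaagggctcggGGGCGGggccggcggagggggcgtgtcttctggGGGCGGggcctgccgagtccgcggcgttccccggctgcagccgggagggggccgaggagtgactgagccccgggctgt
CD9, chr12:6200150-6200399, plus strand: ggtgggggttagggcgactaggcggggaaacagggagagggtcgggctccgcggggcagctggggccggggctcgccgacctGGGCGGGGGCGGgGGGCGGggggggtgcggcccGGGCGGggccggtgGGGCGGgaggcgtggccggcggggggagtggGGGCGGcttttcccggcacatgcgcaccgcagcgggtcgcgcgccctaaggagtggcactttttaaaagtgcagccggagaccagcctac

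The CD53 window held 2 PU.1 boxes, one of them on the other strand, and 1 GC box, with a GC content of 44.0% and 2 CpG sites. The other listed start of CD53, at 45.2% GC, held no match. CD82 held 4 GC boxes and CD9 held 6, with GC contents of 77.2% and 76.8% and with 26 and 28 CpG sites. The median over 35116 windows of all genes was 58% GC and 11 CpG sites, so the CD53 window lay below it and those of CD82 and CD9 above it. Choosing the start with the most matches favours windows rich in GC where the matches are GC boxes. Of the 4 CD9 starts, the first had 52.8% GC with 10 CpG sites, the third 76.8% with 29, and the last 44.8% with 1, and the first and last held a PU.1 box each and no GC box. A GC box was present in 42.6% of all windows and in 27 of the 44 windows of the family, or 61.4%. A PU.1 box was present in 23.6% of all windows and in 11 of the 44, or 25.0%. The NF-kB consensus was present in 5.21% of all windows and in 3 of the family, which belonged to CD63 and TSPAN4. A TATA box was present in 10.7% of all windows and in 1 of the family, that of UPK1A. These matches describe letters only, and binding was not measured.

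CD37, a leukocyte tetraspanin best known from mature B cells and a target of therapeutic antibodies, followed another order. It read 8.46 in HDLM-2, 8.01 in KM-H2, 8.08 in L-1236, 6.45 in L-428, 7.25 in L-540, 6.84 in SUP-HD1 and 5.90 in U-HO1. The 3 highest lines lay within 0.45 of each other, less than the SD between probe sets, and U-HO1 lay lowest. A second probe set stayed below background in all lines. CD37 had r = 0.41 with CD53 and 0.35 with CD82, which became 0.76 for both without L-1236 and U-HO1.

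CD81, part of the B-cell coreceptor complex and the entry receptor of hepatitis C virus, varied least of the 4. Its level was 8.47 in HDLM-2, 9.78 in KM-H2, 8.15 in L-1236, 8.65 in L-428, 7.72 in L-540, 8.90 in SUP-HD1 and 8.63 in U-HO1. Without KM-H2 the range fell from 2.06 to 1.18, and HDLM-2, L-428, SUP-HD1 and U-HO1 lay within 0.43 of each other. Without L-1236 and U-HO1 the CD81 range stayed at 2.06, while that of CD82 was 1.83 and that of CD37 2.01. CD81 had r = -0.10 with CD53, 0.02 with CD82 and 0.04 with CD37, and -0.28, -0.31 and 0.20 without L-1236 and U-HO1. CR2, another protein of the coreceptor complex, stood at 10.98 in KM-H2 and at most 4.92 elsewhere. IFITM1, a further CD81 partner, was at 4.01 in SUP-HD1 and at 9.14 or more in the other lines.

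**Figure D3:**
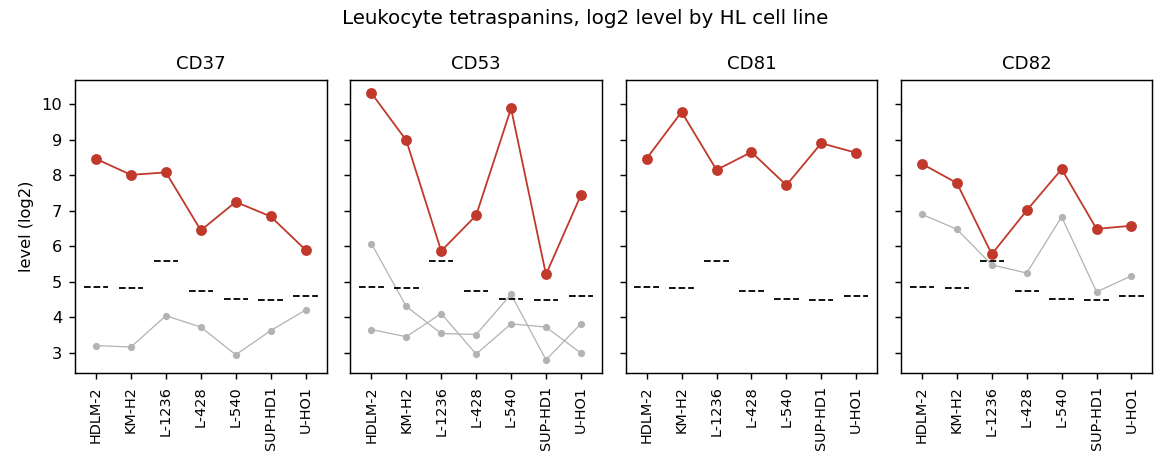
Log2 level of CD37, CD53, CD81 and CD82 in the 7 HL cell lines (horizontal axis), 1 array each. Red points are the probe set used for the gene, grey points its other probe sets, dashes the background of each array, and connecting lines only join the points of a probe set. CD53 and CD82 peak in HDLM-2 and L-540, and CD81 peaks in KM-H2.

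TSPAN8 and TSPAN33 were both highest in L-428, and TSPAN8 was the most variable member. TSPAN8, described mainly in digestive epithelium and its carcinomas, read 2.67 in HDLM-2, 3.08 in KM-H2, 3.92 in L-1236, 9.57 in L-428, 2.65 in L-540, 2.88 in SUP-HD1 and 2.70 in U-HO1. L-428 stood alone, 5.65 above the next line and the other 6 lines below background. With those raised to background the range was 5.08. Only 2 of the 14495 detected genes, TSPAN8 included, had a gap this large in L-428. The gene has a single probe set. Of 5 epithelial markers, 3 were above the background of 4.75 in L-428. KRT8 was at 5.84 there, while KRT18 and CDH1 were barely above background at 4.81 and 4.77. EPCAM and KRT19 were below it at 2.76 and 3.58. Other lines held the highest levels, with KRT8 at 6.37 in L-1236, KRT18 at 4.91 in L-540 and CDH1 at 8.78 in HDLM-2. The part of these markers in the TSPAN8 level was not tested.

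TSPAN33, a TspanC8 member known from activated B cells, was above background in all lines. It read 7.87 in HDLM-2, 7.11 in KM-H2, 7.92 in L-1236, 9.97 in L-428, 7.94 in L-540, 7.34 in SUP-HD1 and 7.40 in U-HO1. L-428 lay 2.03 above the next line, while the other 6 lay within 0.83 of each other. TSPAN8 and TSPAN33 were the 2 members whose highest line lay at least 2 above the next, which held for 4.66% of detected genes. Their r was 0.93 but rho was 0.11, so the relation rests on L-428.

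The upstream sequence of both genes is shown because both were highest in L-428, with the same source, direction and capitals as above.
TSPAN8, chr12:71158000-71158249, minus strand: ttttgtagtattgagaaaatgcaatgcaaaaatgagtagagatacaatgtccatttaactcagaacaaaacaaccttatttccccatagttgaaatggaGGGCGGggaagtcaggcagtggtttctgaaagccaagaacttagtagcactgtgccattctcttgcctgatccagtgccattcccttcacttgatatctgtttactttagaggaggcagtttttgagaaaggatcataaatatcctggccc
TSPAN33, chr7:129144457-129144706, plus strand: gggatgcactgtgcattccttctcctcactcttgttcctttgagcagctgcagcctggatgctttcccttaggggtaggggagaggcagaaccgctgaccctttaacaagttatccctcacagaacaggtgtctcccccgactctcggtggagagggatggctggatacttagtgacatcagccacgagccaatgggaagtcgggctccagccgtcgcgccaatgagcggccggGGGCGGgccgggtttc

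Both windows held 1 GC box and no other match. The TSPAN8 window had 40.8% GC and 1 CpG site and the TSPAN33 window 59.6% GC and 12 CpG sites, so they were unlike in composition. The other listed start of TSPAN8, at 36.0% GC, held 1 PU.1 box and no GC box.

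TSPAN7 split the lines into 3 levels. The gene, active in neurons and first described as a surface antigen of T-cell leukaemia, read 9.32 in HDLM-2, 6.13 in KM-H2, 3.58 in L-1236, 6.20 in L-428, 3.20 in L-540, 8.22 in SUP-HD1 and 3.63 in U-HO1. HDLM-2 and SUP-HD1 were high, KM-H2 and L-428 intermediate within 0.07, and L-1236, L-540 and U-HO1 below background. HDLM-2 and L-540, the pair of T-cell origin, were thus at opposite ends.

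TSPAN13, a tetraspanin reported to modulate calcium channels, showed nearly the reverse for HDLM-2. Its level was 3.73 in HDLM-2, 8.51 in KM-H2, 5.09 in L-1236, 8.85 in L-428, 7.0 in L-540, 8.43 in SUP-HD1 and 5.36 in U-HO1. KM-H2, L-428 and SUP-HD1 shared a high level within 0.42, L-540 was lower, and HDLM-2 and L-1236 were below background. The range was 5.12, or 3.99 with values raised to background. Each of TSPAN7 and TSPAN13 has 1 probe set.

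TSPAN2, known from oligodendrocytes, and TSPAN4, an organiser of migrasomes, were both highest in L-428 and KM-H2. TSPAN2 read 5.04 in HDLM-2, 5.60 in KM-H2, 3.0 in L-1236, 7.03 in L-428, 4.08 in L-540, 2.65 in SUP-HD1 and 3.63 in U-HO1. It was above background in HDLM-2, KM-H2 and L-428 only. Its other probe sets were also highest in L-428 but lay below background in all lines, so the pattern rests on 1 probe set. TSPAN4 read 6.89 in HDLM-2, 7.55 in KM-H2, 5.63 in L-1236, 7.77 in L-428, 5.60 in L-540, 5.84 in SUP-HD1 and 6.37 in U-HO1. Both TSPAN4 probe sets put L-428 first, with a range of 2.17 at one and 3.03 at the other. TSPAN2 and TSPAN4 had r = 0.90 and rho = 0.75.

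**Figure D4:**
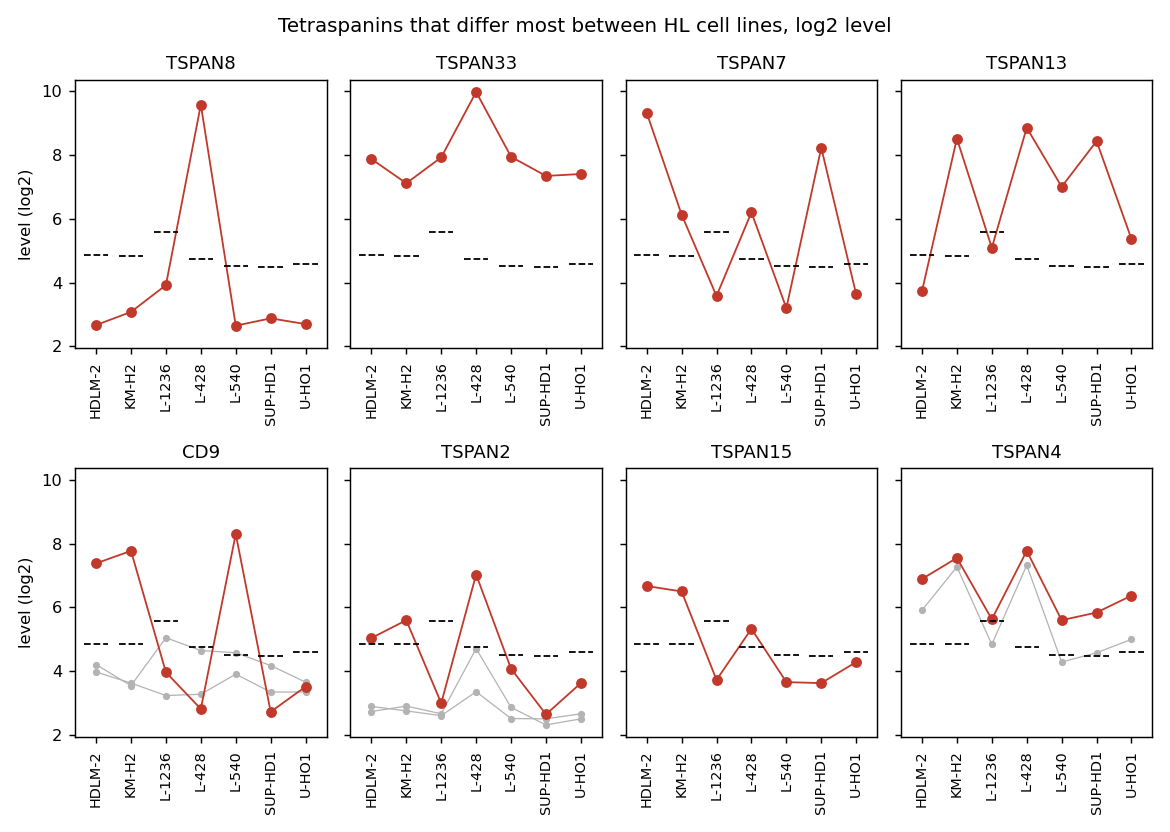
Log2 level of 8 tetraspanins with wide ranges in the 7 HL cell lines (horizontal axis), 1 array each. Red points are the probe set used for the gene, grey points its other probe sets, dashes the background of each array, and connecting lines only join the points. TSPAN8 rises above background in L-428 alone, and CD9 in HDLM-2, KM-H2 and L-540.

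The TspanC8 tetraspanins, which escort the sheddase ADAM10 to the cell surface, were all detected. Of these 6, TSPAN5, TSPAN10, TSPAN17 and TSPAN33 were above background in all lines, TSPAN14 in 6 and TSPAN15 in 3. TSPAN5 read 8.06 in HDLM-2, 8.25 in KM-H2, 9.33 in L-1236, 6.51 in L-428, 6.52 in L-540, 8.36 in SUP-HD1 and 7.20 in U-HO1. L-428 and L-540 were lowest, within 0.01 of each other, whereas L-1236 was highest at 1 of 3 probe sets and SUP-HD1 at the other 2. Without L-1236 the TSPAN5 range was 1.85.

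TSPAN14 read 6.75 in HDLM-2, 5.68 in KM-H2, 4.61 in L-1236, 5.33 in L-428, 6.62 in L-540, 6.01 in SUP-HD1 and 7.47 in U-HO1, and both of its probe sets put U-HO1 first. TSPAN15 read 6.67 in HDLM-2, 6.50 in KM-H2 and 5.33 in L-428 and was below background in the other lines, at 3.63 to 4.29. TSPAN17 had a range of 1.32 with HDLM-2 first at 8.09, and TSPAN10, described in pigmented eye tissue, a range of 1.15 from 4.86 to 6.01. Of the 6 TspanC8 genes, 4 had a range of 2 or more, or 66.7% against 50.2% of detected genes. Without L-1236 and U-HO1, TSPAN15 and TSPAN33 kept such a range, while that of TSPAN14 went from 2.86 to 1.42 and that of TSPAN5 from 2.82 to 1.85.

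ADAM10 itself was above background in all lines, at 9.21 in HDLM-2, 10.75 in KM-H2, 8.28 in L-1236, 8.47 in L-428, 9.66 in L-540, 9.39 in SUP-HD1 and 10.26 in U-HO1. The 2 lines lowest in ADAM10 were L-1236 and L-428, and L-428 was the highest in TSPAN33. Across the lines r with ADAM10 was -0.67 for TSPAN33, 0.59 for TSPAN14, 0.27 for TSPAN15, -0.14 for TSPAN5 and -0.07 for TSPAN17. Without L-1236 and U-HO1 it was -0.81 for TSPAN33, 0.09 for TSPAN14, 0.20 for TSPAN15, 0.49 for TSPAN5 and -0.29 for TSPAN17. TSPAN5 thus turned in sign, and the r of TSPAN14 rested on L-1236 and U-HO1. ADAM10 has 3 probe sets, so r was also taken from the probe set with the largest variance of each gene. It was then -0.24 for TSPAN33, 0.03 for TSPAN14, 0.48 for TSPAN15, -0.08 for TSPAN5 and 0.43 for TSPAN17. With the probe sets of a gene averaged, TSPAN33 had r = -0.39. The r of TSPAN33, TSPAN14 and TSPAN17 with ADAM10 thus depended on the probe set read.

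CD63 and CD151 varied little. CD63, a lysosome and vesicle protein, had a range of 1.44, with U-HO1 lowest at 10.22 and L-428 highest at 11.66. Its ligand TIMP1, a metalloproteinase inhibitor, had a wider range of 3.57 and was lowest in L-428 at 7.54. The r of CD63 and TIMP1 was -0.25 over all lines, -0.78 without L-1236 and U-HO1 and 0.22 without L-428. CD151, which binds laminin-binding integrins, ran from 5.87 in L-1236 and 6.26 in U-HO1 to a band from 7.01 to 7.43 in the other 5 lines. Its range was 1.56 over all lines and 0.42 without L-1236 and U-HO1, the latter below the SD of 0.63 between probe sets. ITGA3, the integrin subunit it binds, read 6.11 in HDLM-2, 4.91 in KM-H2, 4.22 in L-1236, 4.48 in L-428, 5.72 in L-540, 5.72 in SUP-HD1 and 4.08 in U-HO1. CD151 and ITGA3 had r = 0.86 and rho = 0.85, and r = 0.90 without both lines, with ITGA3 below background in 3 lines. The r without both lines covers CD151 differences smaller than that SD. ITGA6, the other integrin subunit paired with CD151, was above background in L-428 alone, at 4.81.

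**Figure D5:**
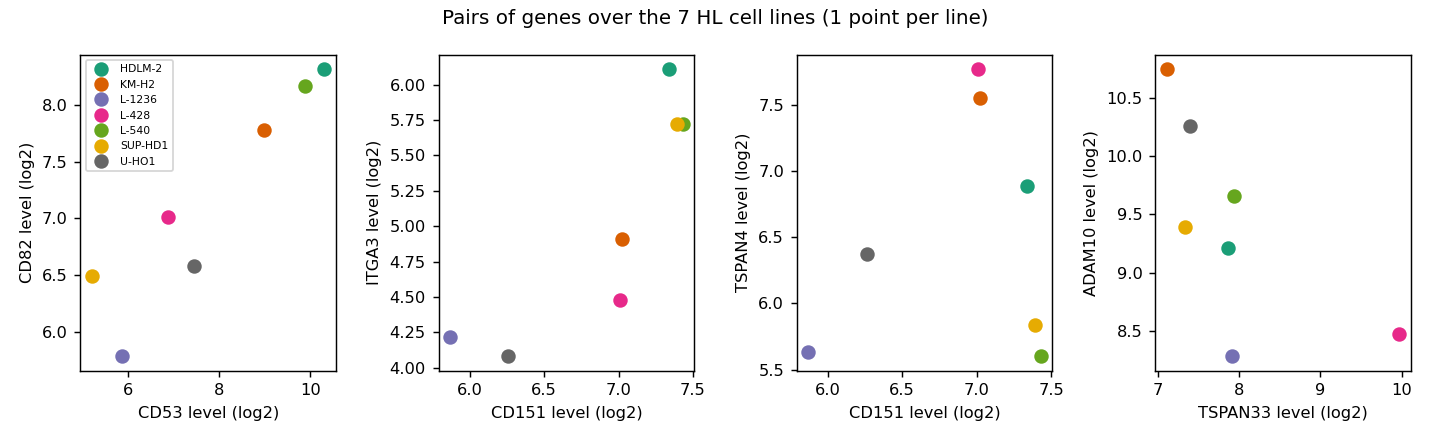
Log2 levels of 4 gene pairs, each point an HL cell line (colours in the key) with 1 array. CD53 and CD82 rise together, and CD151 and ITGA3 likewise with L-1236 and U-HO1 at the low end. CD151 and TSPAN4 have r = 0.19 over the 7 lines and -0.93 without L-1236 and U-HO1. Without these lines CD151 spans 0.42, less than the SD of 0.63 between probe sets. L-428 has the highest TSPAN33 with a low ADAM10 level.

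The remaining TSPAN genes had ranges of at most 2.16 at the probe sets used and were above background in 2 to 7 lines, apart from TSPAN6. TSPAN3 read from 8.16 in L-428 to 10.32 in L-1236, a range of 2.16 that was 1.65 at a second probe set with the same lowest and highest line. Without L-428 the range of TSPAN3 was 1.23. TSPAN31 ran from 7.0 in SUP-HD1 to 8.88 in HDLM-2 and TSPAN9, a platelet tetraspanin, from 5.38 in SUP-HD1 to 7.14 in KM-H2. Without KM-H2 the range of TSPAN9 went from 1.76 to 0.97, and its second probe set was highest in HDLM-2 and did not follow this order. TSPAN12, a component of Norrin and Frizzled signalling in the retina, was above background in L-428 (5.41) and L-540 (5.75) only, and a second probe set gave 5.41 and 5.60 there with the other lines at 3.24 or less. TSPAN32, a tetraspanin of blood cells, read 4.80 to 5.52 in 6 lines and 3.58 in L-1236, but at a second probe set L-1236 was at 4.19, above HDLM-2 and L-540. Its range of 1.94 was 0.79 with values raised to background.

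TSPAN1, known from epithelial tumours, was above background in L-540 and U-HO1, at 5.19 and 5.17. TSPAN18, described in endothelium, was above it in HDLM-2 and L-540, at 4.93 and 4.65, and a second probe set gave 6.05 in HDLM-2 and at most 4.54 elsewhere. TSPAN11 was above background in 4 lines and TSPAN16 in 3, with ranges of 1.25 and 1.05. Of the genes of specialised membranes, UPK1A, a protein of the bladder lining, was above background in 6 lines, from 5.28 in SUP-HD1 to 6.73 in HDLM-2. Its partner UPK2 lay below background in every line. ROM1, a protein of photoreceptor discs, was above background in 3 lines, at most at 5.59, while its partner PRPH2 was not above it in any.

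Some tetraspanin genes are neighbours in the genome, and their relations across lines varied. In the RefSeq annotation no protein-coding gene lies between CD82 and TSPAN18, CD81 and TSPAN32, or TSPAN31 and CDK4, and 1, POLR2L, lies between CD151 and TSPAN4. Across lines r was 0.70 for CD82 and TSPAN18, 0.35 for CD81 and TSPAN32, 0.19 for CD151 and TSPAN4 and -0.54 for TSPAN31 and CDK4. Without L-1236 and U-HO1 these were 0.80, 0.17, -0.93 and -0.65 in the same order. Over the other 5 lines CD151 had a range of 0.42, below the SD of 0.63 between probe sets. The -0.93 of CD151 and TSPAN4 thus rests on differences within that SD. TSPAN18 was above background in 2 lines, so its relation rests mostly on levels without signal. CDK4, which is amplified together with TSPAN31 in sarcomas, was highest in L-428 at 10.89, where TSPAN31 was at 7.35.

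Among the 17 members with a range of 2 or more, 136 pairs could be formed, and 4 of them, or 2.94%, had r of 0.9 or more, against 0.72% of all gene pairs with such ranges. These were CD53 with CD82, TSPAN8 with TSPAN33, CD9 with CD53 and TSPAN2 with TSPAN4. The lowest r of the 136 pairs was -0.83, for TSPAN3 and TSPAN13, which were lowest and highest in L-428.

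By line, HDLM-2 held the highest level for 10 of the 29 detected members, or 34.5%, against 12.5% of all detected genes. L-428 held it for 7, or 24.1%, against 12.7%, and SUP-HD1 for 1, or 3.45%, against 14.5%. In HDLM-2 the lead over the next line was 1.1 for TSPAN7 and 0.69 for UPK1A, the latter close to the SD between probe sets. For the other members that HDLM-2 led it was 0.15 to 0.43, below the SD of 0.63 between probe sets. In L-428 only TSPAN2, TSPAN8 and TSPAN33 had a lead above that SD. The median deviation of the members from the mean of the lines was 0.44 in HDLM-2 and -0.54 in U-HO1, while that of all genes lay within 0.05 of 0 in these lines. In L-1236 it was -0.43, with -0.29 for all genes. The 4 leukocyte members had a median deviation of 1.17 in HDLM-2, 0.95 in KM-H2 and 0.49 in L-540, and of -0.47 to -0.92 in the other 4 lines. The number of members above background was 15 in L-1236, or 46.9% against 43.5% of all genes. It was 19 in U-HO1, or 59.4% against 57.4%, so both lay near the share of all genes. In the others it was 22 to 26, with 26 in L-428, or 81.2% against 56.0%. HDLM-2 and L-428, the lines that led most genes, were also the most unlike pair over the members, with a mean absolute difference of 1.62. Over all genes that pair differed by 0.87 and ranked 17 of 21. L-1236 and U-HO1 were the most alike over the members (0.81), while over all genes they shared the largest difference (1.16) with KM-H2 and L-1236. They also had the fewest members above background. CD9, TSPAN2, TSPAN7, TSPAN8 and TSPAN15 were below it in both, so the 0.81 includes levels without signal.

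Of 20 measured partner genes of the family, 7 were above background in all lines, 12 in 1 to 6 and 1 in none, and 11 had a range of 2 or more, a share close to the 50.2% of all detected genes. ITGB1, the integrin beta subunit shared by many tetraspanin complexes, read 6.20 in L-1236 and 9.19 or more in the other lines. ADAM17, a sheddase related to ADAM10, varied by 1.43.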

How the data were processed

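Total RNA of 7 HL cell lines had been hybridised to 1 array per line. The authors deposited log2 values per probe set after RMA background correction and quantile normalization, and the submitters' processing notes name RMA, affy and limma, with versions not given in the sources used here. Although the methods describe ratios to the sample mean, the deposited values were levels, from 1.99 to 14.17. Both unused columns and missing values numbered 0.

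Of 54675 probe sets, 41097 carried a single gene in the annotation table, 1801 several and 11777 none, and only the first were used. Symbols were updated by gene identifier for 41043 of them. Each gene was read from the probe set with the largest average, the range was highest minus lowest line, and background was set at the 95th percentile of the 107 probe sets for olfactory receptors. A line counted as apart if the gap to its neighbour, as a share of the range, was above Dixon's value of 0.568. Relations between genes are Pearson's r and Spearman's rho, given without p. No test between lines was possible.

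The members, the partner and marker lists and the pairs were chosen with earlier results of these data known. Every member was named, but not every partner. Partners were named from pairs or where a line stood apart, and ITGB1 and ADAM17 were added outside that rule. Of 22 partners listed, 20 were measured. Alternatives covered the choice of probe set, the scaling, the background percentile, the range threshold and the lines used. On simulated data with less spread than the real arrays, only the call of a line at least 2 above the next was checked. Background calls, counts of ranges and r were not checked in this way. Python 3.11.15 with pandas 2.3.3, numpy 2.4.6 and scipy 1.17.1 was used, and figures were drawn with matplotlib 3.10.9.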

Additional observations from a re-analysis of the deposited data

Results flagged for a closer look

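In 3 of 29 detected tetraspanins, 1 line lay apart from the rest by Dixon's gap, which was the case for 12.5% of all detected genes at one end or the other, and chance flags about 1 group in 20 at 7 values. TSPAN8 stood at 9.57 in L-428, with the next line at 3.92. TSPAN33 stood at 9.97 in L-428, with the next at 7.94. TSPAN32 stood at 3.58 in L-1236, with the next lowest at 4.80, but a second TSPAN32 probe set had L-1236 at 4.19, above L-540 at 3.91 and HDLM-2 at 4.14. With values raised to background the TSPAN32 range was 0.79. L-1236 also had the highest background of the arrays, and its part in the TSPAN32 level was not tested.

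Partner genes with a line apart were CR2, IFITM1, TSG101, ITGA6 and UPK3A. CR2 stood at 10.98 in KM-H2 and at 4.92 in the next line. IFITM1 stood at 4.01 in SUP-HD1 and at 9.14 in the next lowest. TSG101, a protein of vesicle formation, stood at 7.67 in L-1236 and at 9.21 in the next lowest. ITGA6 stood at 4.81 in L-428 and at 3.32 in the next, and UPK3A, a uroplakin, at 5.65 in L-1236 and 4.46 in the next. For ITGA6 and UPK3A the highest line was 0.06 above background and the others below it, so these gaps lie in levels without signal.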

How the results depend on the processing

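The number of tetraspanins detected in at least 1 line stayed within 1.5 times its value of 29 under each alternative run. Members above background in all 7 lines fell from 14 to 9 without the _x_at and _s_at probe sets, which can match several transcripts. Of those lost, CD151, TSPAN4 and TSPAN31 had no probe set left, and CD82 and TSPAN9 were below background in at least 1 line. With the 99th percentile as background, 9 of the 32 members were in this class, against 28.3% of all genes. The higher share of the members at the 95th percentile, 43.8% against 34.6% of all genes, was thus absent there. With the 99th percentile the leukocyte members in this class numbered 2 of 4, because CD53 and CD82 fell below it in L-1236. The members with a range of 2 or more numbered 11 rather than 17 without L-1236 and U-HO1. With 1 line left out in turn, this count ran from 14, without L-428, to 17. Over all 7 lines, 7 of the 29 detected members had a range of 3 or more. Of all detected genes, 6.64% had a range from 3.0 to 3.5, 4.46% from 3.5 to 4.0 and 2.99% from 4.0 to 4.5. Each further step of this width held at most 2.37%. When the probe sets of a gene were averaged, which brings in those near background, the range of CD37 was 1.01, the range of CD53 2.77, the range of CD9 2.18 and the range of TSPAN3 1.02. Without L-428 the range of TSPAN8 was 1.27 and the range of TSPAN33 0.83. Of 302 recomputed values of r, 45 moved by more than 0.3 and 28 turned in sign. No paired analysis was possible because no line was profiled more than once. Signal over background limits what can be read in L-1236 most.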
